A study of Mus musculus with 24 samples.

Results

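The comparison is the depot by diet interaction in mice that carried an irisin vector: how far the effect of a high-fat diet (HFD) in epididymal white fat (eWAT) differed from its effect in inguinal white fat (iWAT). It uses 12 of the 24 RNA sequencing libraries of the series, 3 for each of 4 groups: eWAT on HFD, eWAT on chow, iWAT on HFD and iWAT on chow. All 4 groups were C57BL6 mice given an adeno-associated virus (AAV) for irisin, kept 18 weeks on their diet. The other 12 libraries came from mice given an AAV for the control protein GFP. Neither the age of the mice nor the promoter of the vector is given, and nothing in the labels says that the replicates of a group are different animals. The p-values therefore speak for the scatter among libraries, which may be technical. The labels also do not say whether eWAT and iWAT libraries came from the same mice, and the main fit does not pair them.

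Irisin is a hormone cleaved from the membrane protein that Fndc5 encodes. It acts on fat cells through integrin receptors, and the study's title links it to the alarmin IL-33, which binds the receptor ST2 encoded by Il1rl1. Epididymal fat lies in the abdomen under a mesothelium. In obesity it gathers macrophages that surround dying adipocytes, take up lipid and switch on lysosomal and matrix-degrading genes, a state known as lipid-associated macrophages. Inguinal fat lies under the skin, stores lipid with less of this infiltrate, and carries nerves and thermogenic capacity.

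Of the 54532 genes in the table, 16266 had at least 0.5 FPKM (fragments scaled by gene length and by library depth) in at least 3 of the 12 libraries and were tested. Effects are given ± SE as differences of log2(FPKM + 0.5), and on this scale changes of low genes come out too small. The eWAT effect and the iWAT effect are each HFD minus chow, and the interaction is the eWAT effect minus the iWAT effect. The threshold for a call was 0.05 for the p of limma's moderated test with Benjamini-Hochberg adjustment. Libraries held 14.15 M to 19.3 M gene reads (median 15.48 M).

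The depot labels matched the depot markers. Wt1, a transcription factor of the visceral mesothelium, was between 1.19 and 11.9 FPKM in the 6 eWAT libraries and at most 0.0204 FPKM in the 6 iWAT libraries. Tbx15, a developmental gene of subcutaneous fat, was at most 0.0192 FPKM in eWAT and at least 3.7 FPKM in iWAT. Adipoq, the adiponectin gene, was at least 649.9 FPKM in all 12 libraries. The epididymis genes Adam7 and Lcn5 were at 0 in all 12. Lep, the leptin gene, averaged 1145 ± 283 FPKM in eWAT on HFD and 148 ± 16.9 FPKM in eWAT on chow, against 1428 ± 656 FPKM in iWAT on HFD and 123 ± 12.6 FPKM in iWAT on chow (SD, n = 3 each). Both depots thus showed the diet, with an eWAT effect of 2.92 ± 0.28 and an iWAT effect of 3.45 ± 0.28, and the interaction was -0.52 ± 0.40 (adjusted p = 0.478).

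Before any result, 2 libraries stood apart. The library iWAT chow 3 held skeletal muscle RNA: Ckm, the muscle creatine kinase gene, was at 4.83, 17.2 and 279 FPKM in iWAT on chow, at 0, 0.0257 and 1.15 FPKM in iWAT on HFD, and at 0 in all 6 eWAT libraries. The library eWAT HFD 2 held fewer macrophage transcripts than the others of its group: Adgre1, which encodes the macrophage antigen F4/80, was at 115, 32.3 and 145 FPKM in eWAT on HFD. In bulk tissue, fewer cells of a type and less RNA per cell cannot be told apart.

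The interaction was called in 555 genes, 3.41% of those tested. It was positive in 409 genes (2.51%) and negative in 146 genes (0.898%), and the median over all genes tested was -0.02. The macrophage, antigen presentation, matrix and Schwann cell genes lay on the positive side, while genes of triglyceride synthesis, fatty acid oxidation and the adipocyte program lay on the negative side. The diet effect itself was called higher on HFD in 7.16% and lower in 6.34% of genes in eWAT, and higher in 8.41% and lower in 8.58% in iWAT. Across genes, the effects in the 2 depots had a Pearson correlation of 0.252 and a Spearman correlation of 0.284, and 62.04% of genes had the same sign in both. Genes are not independent replicates, and all these values come from the same 12 libraries.

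The positive calls were made up of 2 main kinds. In 202 of the 409 genes the iWAT effect was called lower and the eWAT effect was not called. In 166 the eWAT effect was called higher and the iWAT effect was not called. Another 21 had opposite effects that were both called, and 15 had neither effect called. Of the 146 negative calls, 71 had an iWAT effect called higher alone, 53 an eWAT effect called lower alone, and 12 opposite effects that were both called. In 29 called genes all 6 eWAT libraries were under 0.5 FPKM, and in 15 all 6 iWAT libraries were, so there the interaction rests on the depot that expressed the gene.

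These calls lay close to the threshold, with a lowest adjusted p of 0.0203, and they depend on single libraries. There were 1560 positive and 1304 negative calls without eWAT HFD 2, and 636 and 165 without iWAT HFD 1. There were 71 and 23 without eWAT HFD 3, 69 and 57 without iWAT HFD 2, 57 and 31 without iWAT chow 1, 30 and 14 without iWAT chow 2, and 56 and 19 without iWAT chow 3. There were 7 and 6 without eWAT HFD 1, 1 and 1 without eWAT chow 1, and 8 and 6 without eWAT chow 3. Without eWAT chow 2, or without iWAT HFD 3, limma called 0 genes in either direction, with 2887 and 3181 genes at an unadjusted p under 0.05. The sign of the interaction did not change in any called gene that was still tested in these 12 fits. The genes were selected on the same libraries, which by itself favours a kept sign, so this is no independent support. Without both iWAT chow 3 and eWAT HFD 2, 1320 positive and 1021 negative calls were made, and 523 of the 528 called genes still tested were among them. The library eWAT HFD 2 was set apart for its low macrophage transcripts. Counts without it, here and for the lists below, are therefore no independent support. By limma's voom method on the recovered reads there were 153 positive and 52 negative calls.

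**Figure D1:**
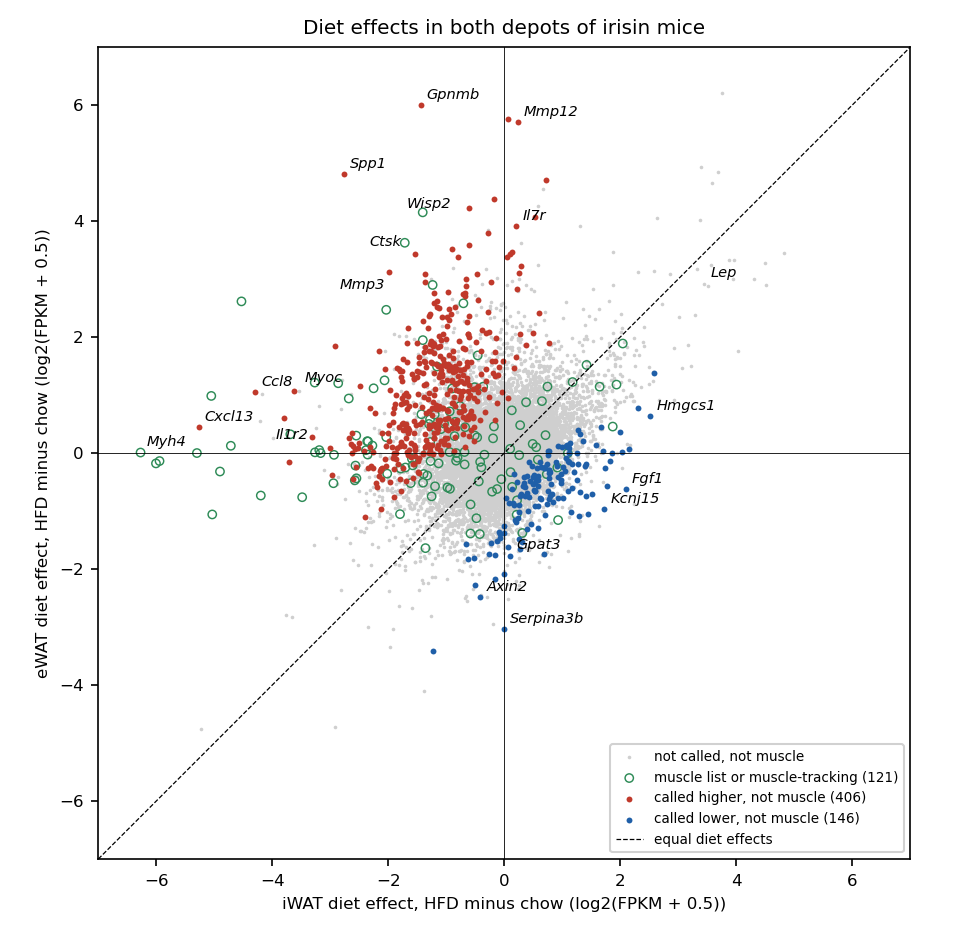
Diet effect in eWAT (y axis) against diet effect in iWAT (x axis) for the 16266 genes tested, each HFD minus chow on the log2(FPKM + 0.5) scale, with red and blue points for positive and negative interaction calls and open green circles for 121 muscle genes. The 406 positive calls outside muscle lie above the dashed line of equal effects, many of them left of 0 in iWAT, and the 146 negative calls lie below it.

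Skeletal muscle transcripts were set apart from these results. Of the 37 genes of the muscle list that were tested, 35 had a positive interaction, with a median of 2.72, yet 2 were called, Myh4 and Trdn. Myh4, the fast myosin heavy chain gene, was at most 0.0106 FPKM in eWAT, at 0.045, 0 and 1.3 FPKM in iWAT on HFD, and at 11.9, 32.9 and 543 FPKM in iWAT on chow. Acta1, the skeletal actin gene, was at 30.9, 99 and 1614 FPKM in iWAT on chow, against 11.5 to 90.1 FPKM in the other 9 libraries. The muscle list took 0.079%, 0.154% and 1.71% of gene reads in iWAT on chow, and 0.04% to 0.051% in the other 9 libraries. So all 3 iWAT chow libraries held more muscle RNA than the rest, and the third held by far the most. The other 4 muscle genes with the highest level in iWAT on chow were not called. Tnnt3 (troponin T) and Atp2a1 (the muscle calcium pump) had interactions of 5.80 and 5.83, Pvalb (parvalbumin) had 7.14, and Myl1 (a myosin light chain) had 0.51. Another rule took genes that followed Ckm across the 3 iWAT chow libraries over at least 2 log2 units. It found 111 tested genes, of which 3 were called, Igkj2 among them, an immunoglobulin segment and no muscle gene. Outside the muscle list and these genes, 552 calls remained, 406 positive and 146 negative. With a muscle score as covariate, limma called 2 genes in each direction, with 2143 at an unadjusted p under 0.05. Some median interactions stayed close to those without it. They were 3.58 with and 3.62 without the covariate for lipid-associated macrophage genes, and 3.13 and 3.09 for pan-macrophage genes. For matrix genes they were 1.23 and 1.09, and for triglyceride genes -1.05 and -1.15. Others moved, among them the muscle list, at -0.34 with and 2.72 without the covariate. The irisin precursor and receptor genes had 0.36 and 0.88, and mural markers -0.67 and 0.02.

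Lipid-associated macrophage genes included the 2 largest interactions called, those of Spp1 and Gpnmb. Of 18 tested, 9 were called, all positive, and the list's median interaction was 3.62, against -0.02 over all genes. The eWAT effect was called higher in 16 of 18, with a median of 2.59, and the iWAT median was -0.35. Spp1, which encodes the secreted protein osteopontin, was at 32.3, 4.75 and 49.7 FPKM in eWAT on HFD, against 0.109, 0.229 and 0.391 FPKM in eWAT on chow. In iWAT it was at 1.41, 0.182 and 0.304 FPKM on HFD, against 5.25, 6.95 and 7.25 FPKM on chow. The diets did not overlap in either depot, and they ran in opposite directions: the eWAT effect was 4.80 ± 0.68 (adjusted p = 0.00314) and the iWAT effect -2.77 ± 0.68 (adjusted p = 0.0195). The interaction was 7.57 ± 0.97 (adjusted p = 0.0203). It stayed between 6.93 and 8.56 when any 1 library was left out, with an adjusted p of up to 0.0674, and the call was lost without eWAT chow 1, eWAT chow 2 or iWAT HFD 3.

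Gpnmb, a membrane glycoprotein of lipid-laden macrophages, was at 231, 45.1 and 568 FPKM in eWAT on HFD, against 2.71, 1.43 and 3.25 FPKM in eWAT on chow. In iWAT it was at 19.6, 3.27 and 3.97 FPKM on HFD and at 17.8, 21 and 16.8 FPKM on chow, where the diets overlapped. Its interaction was 7.44 ± 1.16 (adjusted p = 0.0212), with an eWAT effect of 5.99 and an iWAT effect of -1.44 that was not called. Atp6v0d2, a subunit of the lysosomal proton pump found in macrophages and osteoclasts, was at 76.3, 15.7 and 131 FPKM in eWAT on HFD, against 0.486, 0.318 and 0.759 FPKM on chow. In iWAT it was at 5.21, 0.359 and 1.85 FPKM on HFD and at 1.21, 2.4 and 1.49 FPKM on chow. Its eWAT effect was 5.76 ± 0.75, its iWAT effect 0.07 ± 0.75 and its interaction 5.69 ± 1.06 (adjusted p = 0.0317). Ctsk, the collagen-cutting cathepsin K, had an interaction of 4.98 ± 0.84 (adjusted p = 0.0243). The other called members of the list were Mmp12, Clec4d, Nceh1, Ms4a7 and Lgals3.

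The members that were not called include Trem2, the lipid receptor that defines this macrophage state. It was at 60.6, 10.4 and 81.2 FPKM in eWAT on HFD, against 3.12, 3.41 and 4.55 FPKM on chow. In iWAT it was at 4.07, 0.439 and 1.87 FPKM on HFD and at 2.48, 4.99 and 3.37 FPKM on chow. Its interaction of 4.07 missed the threshold (adjusted p = 0.0508). Plin2 and Fabp5, which coat lipid droplets and carry fatty acids in many cell types, had interactions of 0.40 and -0.14, and for both the effect was called higher on HFD in both depots. The count of called list members was 16 of 18 without eWAT HFD 2, 3 of 18 without iWAT chow 3, and 16 of 18 without both. Since eWAT HFD 2 was doubted for its low macrophage transcripts, more macrophage calls without it are bound up with that choice.

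The promoters of 3 called genes of this list are shown because they hold the letters GAGGAAGT or their reverse complement, a core to which PU.1, the macrophage lineage factor encoded by Spi1, is known to bind. Spi1 was itself called, at 46.7 ± 31.3 FPKM in eWAT on HFD and 9.62 ± 1.38 FPKM in eWAT on chow, with an interaction of 3.20 ± 0.71 (adjusted p = 0.0406). The sequences are from RefSeq on build GRCm38.p6, plus strand, and run over the 250 bases before each gene's start site. They lie at chr5:104434861-104435110 for Spp1, chr9:7344147-7344396 for Mmp12 and chr3:27182754-27183003 for Nceh1, and capitals mark the match.
Spp1: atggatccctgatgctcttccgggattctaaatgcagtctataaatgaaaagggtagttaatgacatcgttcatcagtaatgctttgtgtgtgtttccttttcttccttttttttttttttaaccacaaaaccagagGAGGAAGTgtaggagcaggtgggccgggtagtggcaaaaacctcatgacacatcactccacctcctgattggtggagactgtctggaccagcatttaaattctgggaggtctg
Mmp12: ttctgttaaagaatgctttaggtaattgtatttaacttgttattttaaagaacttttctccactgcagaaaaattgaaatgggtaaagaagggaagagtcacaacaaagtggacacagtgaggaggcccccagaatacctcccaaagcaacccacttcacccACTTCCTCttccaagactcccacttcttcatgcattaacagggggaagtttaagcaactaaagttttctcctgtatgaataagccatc
Nceh1: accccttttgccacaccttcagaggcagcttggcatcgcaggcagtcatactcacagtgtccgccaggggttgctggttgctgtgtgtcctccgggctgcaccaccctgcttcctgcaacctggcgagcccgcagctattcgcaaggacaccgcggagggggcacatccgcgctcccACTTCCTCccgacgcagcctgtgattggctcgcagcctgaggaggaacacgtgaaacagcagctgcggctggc
The match begins 113 bases before the start site in Spp1, 88 in Mmp12 and 73 in Nceh1, on the minus strand in the last 2. Over windows from 250 bases before to 50 after the start site, these letters stood on either strand in 19 of 281 protein-coding genes with a positive call (6.76%), 1 of 98 with a negative call (1.02%) and 316 of all 10104 tested (3.13%). The motif TCATGTG, bound by Mitf and related factors, stood in 4.63%, 2.04% and 2.13% of the same windows, and TCACGTG in 2.49%, 5.1% and 6.07%. A match describes the letters only. Nceh1, a neutral cholesterol ester hydrolase, is named for this match, and averaged 23.6 ± 14.5 FPKM in eWAT on HFD and 2.28 ± 0.56 FPKM in eWAT on chow. In iWAT Nceh1 averaged 1.73 ± 0.805 FPKM on HFD and 3.09 ± 1.64 FPKM on chow, with an interaction of 3.55 ± 0.72 (adjusted p = 0.0351).

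Pan-macrophage antigens and leukocyte integrins lay on the same side. Of 20 tested, 15 were called, all positive, with a median interaction of 3.09. The eWAT effect was called higher in 8 and the iWAT effect lower in 9. Adgre1 was at 115, 32.3 and 145 FPKM in eWAT on HFD, against 16.6, 15.8 and 14.8 FPKM on chow. In iWAT Adgre1 was at 23, 7.96 and 11.1 FPKM on HFD and at 28.3, 31.4 and 22.9 FPKM on chow, so that 1 HFD library reached the chow range. Its interaction was 3.41 ± 0.70 (adjusted p = 0.0359). Mpeg1, a pore-forming protein of macrophages, had an eWAT effect of 3.58 ± 0.51 and an interaction of 4.19 ± 0.72 (adjusted p = 0.0278). Fcgr3, an Fc receptor, had an interaction of 3.17 ± 0.60 (adjusted p = 0.0324). Mertk, a receptor for dying cells, had 0.03 and was not called. Without iWAT chow 3, limma called 0 of the 20, with 19 at an unadjusted p under 0.05. It called 19 without eWAT HFD 2 and 19 without both libraries, and voom on all libraries called 9.

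Resident and alternatively activated macrophage genes differed from these in where the effect lay. Of 15 tested, 4 were called, all positive, while the iWAT effect was called lower in 12 and the eWAT effect higher in 0 and lower in 4. Ccl8, a monocyte chemokine of resident macrophages, was at 44.1, 34.3 and 33.2 FPKM in eWAT on HFD, against 23.5, 15.4 and 14.8 FPKM on chow. In iWAT Ccl8 was at 48.1, 8.36 and 9.71 FPKM on HFD, against 322, 444 and 235 FPKM on chow. No HFD library of iWAT came near the chow range, and the iWAT effect was -4.30 ± 0.53 (adjusted p = 0.000838) with an interaction of 5.36 ± 0.75 (adjusted p = 0.0206). Clec10a, a galactose lectin, was at 33.7, 26.3 and 47.5 FPKM in eWAT on HFD and at 30.5, 33.7 and 35.8 FPKM in eWAT on chow. In iWAT Clec10a was at 24.6, 12.4 and 11.7 FPKM on HFD, against 91.3, 104 and 85 FPKM on chow. The eWAT diets overlapped, the iWAT diets did not, and the interaction was 2.63 ± 0.38 (adjusted p = 0.0206). Mrc1, the mannose receptor, and Folr2, a folate receptor, had interactions of 2.62 ± 0.41 and 2.47 ± 0.40 and iWAT effects of -1.92 and -1.98.

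**Figure D2:**
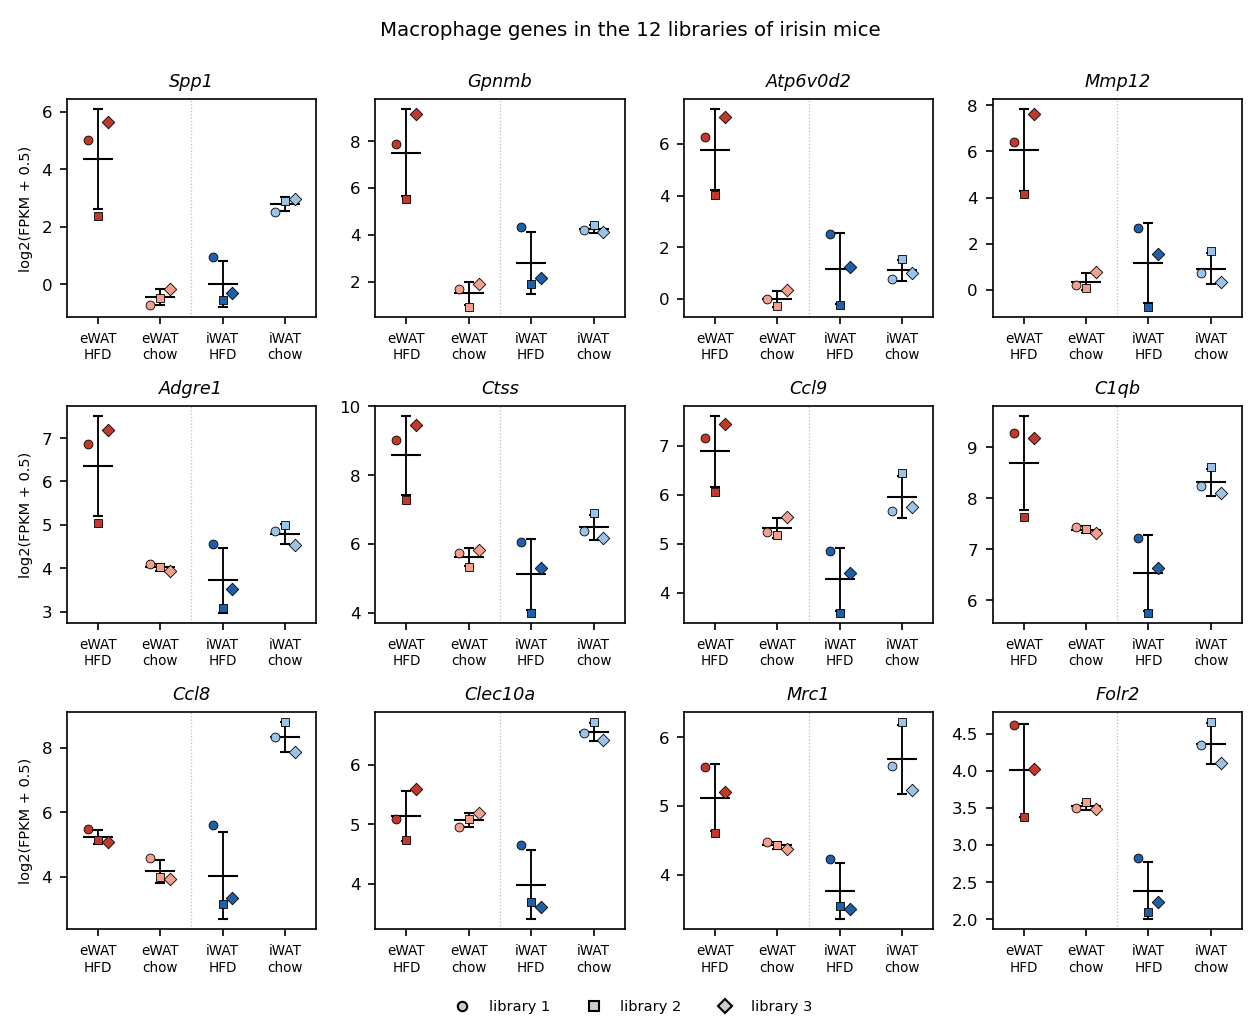
Expression of 12 macrophage genes on the log2(FPKM + 0.5) scale in the 4 groups of irisin mice, with a symbol for each library and bars for the mean ± SD (n = 3). In the top row eWAT on HFD stands above the other 3 groups, while in the bottom row iWAT on chow stands highest. There the eWAT diets overlap for Clec10a, whereas for Ccl8 all eWAT HFD libraries lie above those on chow.

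Chemokines and inflammatory cytokines gave 3 positive calls of 24, with a median interaction of 1.28. Among them were the chemokines Ccl6 (2.73 ± 0.44) and Ccl9 (3.24 ± 0.54), with adjusted p of 0.0212 and 0.0243. Of the 24, 13 were called positive without eWAT HFD 2, and without iWAT chow 3, 2 were. Ccl9 was at 142, 66 and 173 FPKM in eWAT on HFD, against 37.1, 35.7 and 46.2 FPKM on chow. In iWAT Ccl9 was at 28.4, 11.5 and 20.5 FPKM on HFD, against 50, 86.5 and 53.4 FPKM on chow, so that neither depot overlapped and the directions were opposite. Cxcl13, a chemokine that attracts B cells, was outside these lists. It was at 5.36, 1.87 and 33.4 FPKM in eWAT on HFD and at 11.8, 4.74 and 2.35 FPKM in eWAT on chow, against 1.74, 0.326 and 0.145 FPKM in iWAT on HFD and 32.4, 51.4 and 39.8 FPKM in iWAT on chow. Its interaction of 5.72 ± 1.21 (adjusted p = 0.0388) came from the iWAT effect of -5.27 ± 0.85.

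Of 26 lysosomal genes tested, the eWAT effect was called higher in 15 and the iWAT effect in 1, the median interaction was 0.91, and 3 were called positive. These were Ctss (cathepsin S, 4.32 ± 0.81), Hexa (a hexosaminidase, 1.84 ± 0.36) and Cd68 (a macrophage lysosomal glycoprotein, 3.97 ± 0.89), all 3 among the genes called higher in eWAT. Of the 26, 16 were called positive without eWAT HFD 2, and without iWAT chow 3 limma called 0, with 16 at an unadjusted p under 0.05. MHC class II presentation gave 4 positive calls of 10, with a median of 1.91: H2-Ab1, H2-Aa and H2-Eb1, which encode the chains that display peptides, and Cd74, the invariant chain. H2-Ab1 was at 427, 261 and 472 FPKM in eWAT on HFD, against 186, 112 and 132 FPKM on chow. In iWAT H2-Ab1 was at 206, 98.5 and 170 FPKM on HFD, against 313, 273 and 233 FPKM on chow. The eWAT effect was 1.42 ± 0.31 (adjusted p = 0.0155), the iWAT effect of -0.84 ± 0.31 was not called, and the interaction was 2.26 ± 0.43 (adjusted p = 0.0324). Of the 10 class II genes, limma called 8 without eWAT HFD 2 and 0 without iWAT chow 3, with 9 at an unadjusted p under 0.05 in both fits. Without both libraries it called 7 of the 9 still tested, and voom on all libraries called 4.

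Complement components and receptors gave 7 positive calls and 1 negative call of 18, with 13 called lower on HFD in iWAT and 4 in eWAT. C1qa and C1qb, which encode the recognition subunits, had interactions of 2.67 ± 0.49 and 3.10 ± 0.62. C5ar1, the receptor for the fragment C5a, was at 50.5, 17.7 and 80.4 FPKM in eWAT on HFD, against 9.53, 11.8 and 11.3 FPKM on chow. In iWAT C5ar1 was at 10.3, 4.7 and 5.38 FPKM on HFD, against 21.8, 22.8 and 20.3 FPKM on chow. The groups did not overlap in either depot, and the interaction was 3.58 ± 0.63 (adjusted p = 0.0288). Masp1, a serine protease of the lectin pathway, went the other way at -1.84 ± 0.29 (adjusted p = 0.0212), since its level was 0.337, 0.161 and 0.201 FPKM in eWAT on HFD, against 1.47, 1.78 and 1.61 FPKM in eWAT on chow. Voom called 7 of the 18. Without iWAT chow 3 limma called 1, and without eWAT HFD 2 it called 10 positive and 3 negative.

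Lymphocyte markers did not yield calls in the main fit. Limma called 0 of 15 T and NK cell genes and 0 of 9 B cell genes, with 3 and 4 at an unadjusted p under 0.05 and 0 by voom. Without eWAT HFD 2 it called 0 of 15 T and NK cell genes and 3 of the 8 B cell genes still tested. Without both doubted libraries it called 1 of 14 and 2 of 8, all positive. Cd37, a tetraspanin of leukocytes, had the smallest p of the B cell list, with an interaction of 2.26 ± 0.61 (adjusted p = 0.0638). Cd6, a T cell surface receptor, had 1.09 ± 0.36 (adjusted p = 0.107), and its eWAT effect of 1.20 was called. Cell cycle genes were called higher on HFD in eWAT in 15 of 30 and in iWAT in 3. Limma called their interaction in 0, with 2 at an unadjusted p under 0.05 and 0 by voom, and the median was 0.72. Without eWAT HFD 2, 7 of the 29 still tested were called positive and 19 had an unadjusted p under 0.05, and without both doubted libraries 6 were called. Interferon response genes were called lower on HFD in iWAT in 15 of 28 and in eWAT in 3. The one interaction call there was Oas3, an antiviral synthetase, at 1.59 ± 0.38 (adjusted p = 0.0469).

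The irisin and IL-33 genes gave 3 calls. Il1rl1, which encodes ST2, was at 3.65, 1.32 and 2.85 FPKM in eWAT on HFD, against 1.45, 1.48 and 1.88 FPKM on chow. In iWAT Il1rl1 was at 1.13, 1.01 and 1.37 FPKM on HFD, against 3.3, 2.86 and 2.57 FPKM on chow. The eWAT diets overlapped and the iWAT diets did not, with an iWAT effect of -1.03 ± 0.26 (adjusted p = 0.0212). The interaction of 1.52 ± 0.37 was just called (adjusted p = 0.0493), and it was called in 1 of the 12 fits that each left out 1 library. Il33 was at 5.74, 3.39 and 2.61 FPKM in eWAT on HFD and at 8.88, 4.75 and 10.2 FPKM in eWAT on chow, against 1.6, 1.19 and 1.54 FPKM in iWAT on HFD and 7.52, 6.97 and 3.11 FPKM in iWAT on chow. Its iWAT effect of -1.63 ± 0.36 was called, its eWAT effect of -0.93 ± 0.36 was not, and the interaction of 0.70 ± 0.51 was not (adjusted p = 0.458).

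Il7r, part of the receptors for IL-7 and TSLP, was at 15.4, 4.33 and 24.4 FPKM in eWAT on HFD and below 0.91 FPKM in the other 9 libraries, with an interaction of 3.71 ± 0.67 (adjusted p = 0.0301). Fndc5 was at 3.32, 4.94 and 1.04 FPKM in eWAT on HFD and at 0.456, 0.801 and 1.4 FPKM in eWAT on chow. In iWAT Fndc5 was at 0.392, 3.17 and 3.91 FPKM on HFD and at 0.621, 1.21 and 2.93 FPKM on chow. The groups overlapped in both depots, and the interaction of 0.87 ± 0.92 was not called (adjusted p = 0.635). Itgb3, an integrin beta subunit, was the one call of the 6 irisin precursor and receptor genes, at 1.12 ± 0.27 (adjusted p = 0.0471), through an iWAT effect of -1.46 ± 0.19.

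Matrix genes were more often raised in eWAT and lowered in iWAT. Of 36 extracellular matrix genes, the eWAT effect was called higher in 14 and lower in 0, the iWAT effect was called lower in 12 and higher in 5, and the interaction was called positive in 8. The list's median interaction was 1.09. Thbs2, a matricellular thrombospondin, was at 16.5, 14.9 and 13.7 FPKM in eWAT on HFD, against 5.06, 3 and 6.16 FPKM on chow. In iWAT Thbs2 was at 11.9, 7.88 and 11.6 FPKM on HFD, against 16.9, 28.4 and 21.8 FPKM on chow. Neither depot overlapped, and the interaction was 2.66 ± 0.36 (adjusted p = 0.0206). Col1a2, a chain of fibrillar collagen I, was at 85.9, 65.5 and 143 FPKM in eWAT on HFD and at 53.1, 63 and 78.3 FPKM in eWAT on chow, against 125, 48.6 and 63.3 FPKM in iWAT on HFD and 302, 351 and 200.3 FPKM in iWAT on chow. Its interaction of 2.46 ± 0.52 (adjusted p = 0.039) came from the iWAT effect of -1.92 ± 0.37. Fn1 (fibronectin) and Loxl2, which crosslinks collagen, had interactions of 1.91 ± 0.42 and 1.61 ± 0.34. Without iWAT chow 3, 1 of the 36 was called positive. Without eWAT HFD 2, 17 were called positive and 1 negative, and without both libraries 15 were called positive.

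Matrix proteases and their inhibitors gave 5 positive calls of 21. Mmp3, the stromelysin of stromal cells, was at 15.8, 4.59 and 15.3 FPKM in eWAT on HFD, against 0.7, 0.36 and 1.43 FPKM on chow. In iWAT Mmp3 was at 37.6, 18.9 and 18.5 FPKM on HFD, against 87.1, 128 and 76.6 FPKM on chow. Its groups did not overlap in either depot, with an eWAT effect of 3.12 ± 0.47, an iWAT effect of -1.98 ± 0.47 and an interaction of 5.10 ± 0.66 (adjusted p = 0.0203). Mmp12, the macrophage elastase, was at 84.1, 17.2 and 197 FPKM in eWAT on HFD, against 0.647, 0.574 and 1.2 FPKM on chow, with an interaction of 5.47 ± 1.28 (adjusted p = 0.0459). Timp1, Mmp2 and Timp2 had interactions of 3.93 ± 0.76, 2.73 ± 0.61 and 1.83 ± 0.42. Of the 21, 9 were called positive and 1 negative without eWAT HFD 2, and without iWAT chow 3, 1 was called. Stromal progenitor markers were called lower on HFD in iWAT in 11 of 18, with 2 positive interaction calls, Wnt2 (2.35 ± 0.52), a Wnt ligand, and Fap (1.29 ± 0.30), a surface protease of fibroblasts.

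Wisp2, a secreted Wnt-regulated protein, was at 34.8, 17.2 and 26.9 FPKM in eWAT on HFD, against 2.28, 0.393 and 0.57 FPKM on chow. In iWAT Wisp2 was at 15.3, 6.97 and 15.2 FPKM on HFD and at 18.1, 20 and 16.6 FPKM on chow. Its interaction was 4.82 ± 0.60 (adjusted p = 0.0203). Il1r2, the decoy receptor for interleukin 1, was under 0.74 FPKM in all 6 eWAT libraries. In iWAT it was at 2.95, 3.06 and 1.29 FPKM on HFD, against 30, 68.9 and 27.9 FPKM on chow, for an interaction of 4.41 ± 0.52 that rests on iWAT. Myoc (myocilin) had 4.69 ± 1.01, likewise from iWAT. Rnf128 (a ubiquitin ligase, 4.56), Cd300c2 (an immunoglobulin-like receptor of myeloid cells, 4.46) and Slc37a2 (a sugar phosphate transporter, 4.41) had eWAT effects of 4.38, 3.09 and 3.51 and iWAT effects that were not called.

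**Figure D3:**
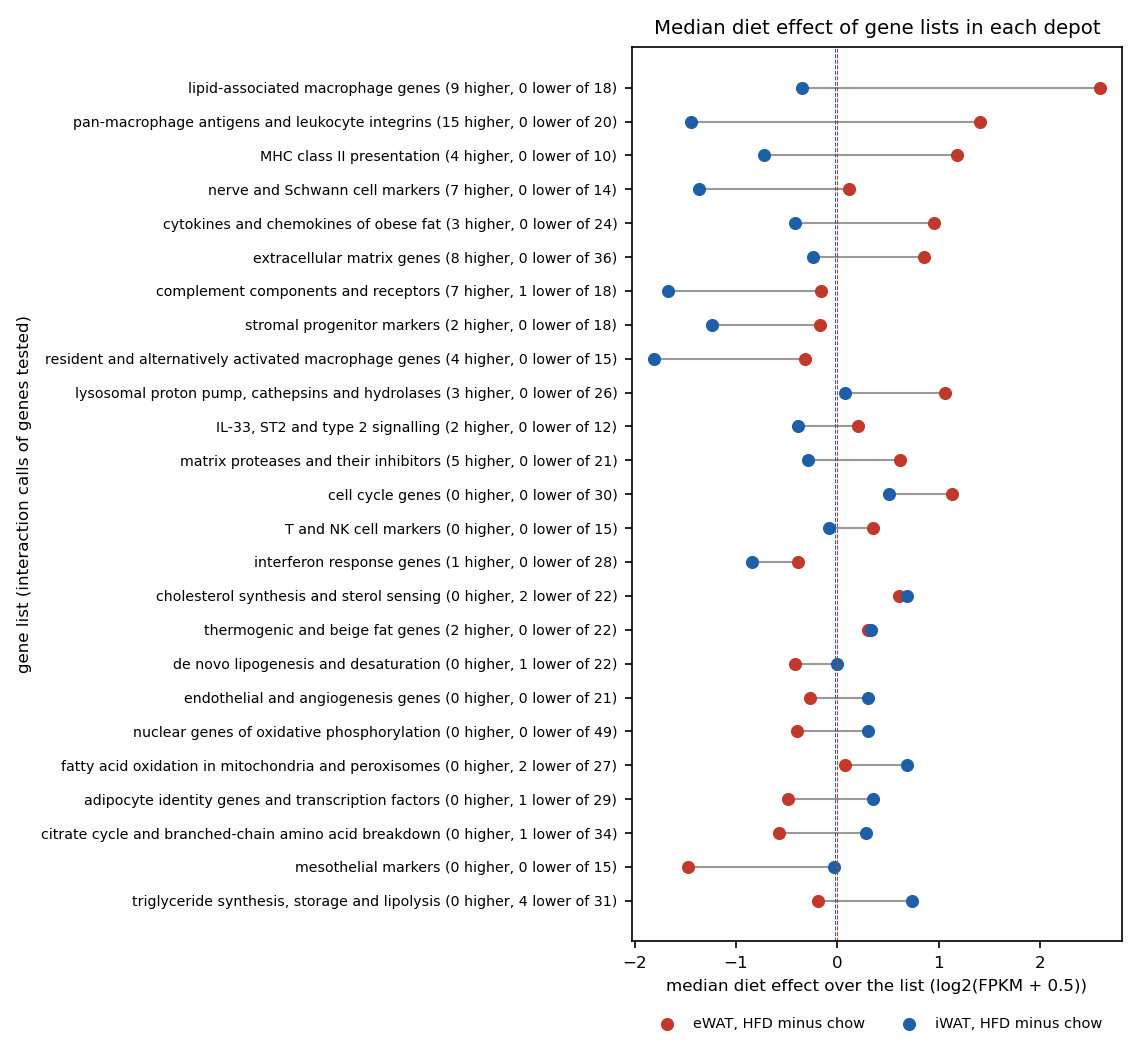
Median diet effect, HFD minus chow on the log2(FPKM + 0.5) scale, in eWAT (red) and iWAT (blue) for 25 gene lists sorted by median interaction, with the interaction calls of each list in brackets and dashed lines for the medians over all genes. The lipid-associated macrophage and pan-macrophage lists have the widest gaps with eWAT to the right, and the lipid and mitochondrial lists at the bottom have iWAT to the right.

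Of 14 nerve and Schwann cell markers tested, the iWAT effect was called lower in 11 and the eWAT effect in 0, and the interaction was called positive in 7, with a median of 1.48. For genes near 0 in eWAT, the interaction is the iWAT effect with its sign turned. Ncmap, a membrane protein of myelinating Schwann cells, was at 0.0233, 0.0323 and 0.0286 FPKM in eWAT on HFD and at 0.0539, 0.267 and 0.0579 FPKM in eWAT on chow. In iWAT Ncmap was at 0.389, 0.168 and 0.125 FPKM on HFD, against 3.85, 1.89 and 3.77 FPKM on chow. The iWAT diets did not overlap, and the interaction was 2.07 ± 0.37 (adjusted p = 0.0301). Cdh19, a cadherin of Schwann cells, was at 0.747, 1.35 and 0.703 FPKM in iWAT on HFD, against 3.21, 3.3 and 2.91 FPKM in iWAT on chow. Its interaction was 1.47 ± 0.28 (adjusted p = 0.0322). Cnp, an enzyme of myelin, had an interaction of 1.47 ± 0.29, and its lowest eWAT library had 7.09 FPKM. Without iWAT chow 3, limma called 0 of the 12 markers still tested, with 9 at an unadjusted p under 0.05 and a median of 1.41. It called 7 of 12 without both libraries, and voom on all libraries called 1 of 14.

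Genes of triglyceride synthesis, storage and lipolysis made up the clearest group on the negative side. Of 31 tested, 28 had a negative interaction and 4 were called, all negative, with a median of -1.15. The iWAT effect was called higher in 15 and lower in 0, against 3 higher and 3 lower in eWAT. Gpat3, which adds the first fatty acid to glycerol phosphate, was at 11.3, 18.4 and 9.55 FPKM in eWAT on HFD, against 46.9, 44.9 and 40.7 FPKM on chow. In iWAT Gpat3 was at 28.9, 26.5 and 27.8 FPKM on HFD and at 28.6, 22.9 and 26.1 FPKM on chow. The eWAT effect was -1.77 ± 0.20 (adjusted p = 0.00103), the iWAT effect 0.10 ± 0.20, and the interaction -1.87 ± 0.28 (adjusted p = 0.0206). Agpat2, the enzyme of the next step, showed the other form: it was at 182, 198 and 192 FPKM in eWAT on HFD and at 202, 183 and 140 FPKM in eWAT on chow. In iWAT Agpat2 was at 419, 388 and 356 FPKM on HFD, against 174, 99.1 and 127 FPKM on chow, so that the eWAT diets overlapped and the iWAT diets did not. Its interaction was -1.43 ± 0.28 (adjusted p = 0.0326).

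Plin5, a lipid droplet protein that ties droplets to mitochondria, was at 6.95, 4.72 and 5.29 FPKM in eWAT on HFD, against 3.74, 3.8 and 4.39 FPKM on chow. In iWAT Plin5 was at 14, 16.3 and 15.7 FPKM on HFD, against 5.07, 3.48 and 5 FPKM on chow. Its iWAT effect of 1.68 ± 0.17 was called, its eWAT effect of 0.45 ± 0.17 was not, and its interaction was -1.23 ± 0.24 (adjusted p = 0.0324). Bscl2 (seipin, which builds lipid droplets) had -0.93 ± 0.21. Without eWAT HFD 2, 21 of the 30 genes still tested were called negative, without iWAT chow 3 it was 1, and without both it was 20. In eWAT HFD 2 the mean log2(FPKM + 0.5) over this list was 6.55, against 5.88 and 5.75 in the other 2 eWAT HFD libraries. The same library had the lowest macrophage level of its group, and the part of cell makeup in the adipocyte gene values was not tested.

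Fatty acid oxidation genes rose in iWAT on HFD in 13 of 27 and in eWAT in 1, with 2 interaction calls, both negative, and a median of -0.78. Pex11a, which divides peroxisomes, was at 11.3, 14.8 and 9.42 FPKM in eWAT on HFD, against 28.4, 23.8 and 26 FPKM on chow, and had an interaction of -1.37 ± 0.23 (adjusted p = 0.024). Slc25a20, the mitochondrial carnitine carrier, was at 23.6, 31.4 and 22.9 FPKM in iWAT on HFD, against 13.1, 9.63 and 12.4 FPKM in iWAT on chow, and had -1.02 ± 0.23 (adjusted p = 0.0435). Without eWAT HFD 2, 19 of the 27 were called negative and 1 positive, and without iWAT chow 3, 1 was called. Nuclear genes of oxidative phosphorylation differed little and mostly one way: 48 of 49 had a negative interaction, the median was -0.66, and the lowest adjusted p was 0.0617. Limma called 0 of them, with 35 at an unadjusted p under 0.05 and 0 called by voom, while limma called 37 without eWAT HFD 2 and 24 without both libraries. Atp5a1, a subunit of ATP synthase, had -0.87 ± 0.23, and Cyc1, cytochrome c1, -0.95 ± 0.26. The citrate cycle and branched-chain amino acid list gave 1 negative call of 34, Acad8 (-0.72 ± 0.13), an enzyme of valine breakdown, and a median of -0.92. Of the 34, 30 were called negative without eWAT HFD 2, and without both doubted libraries 25. Without iWAT chow 3 limma called 0, with 21 at an unadjusted p under 0.05.

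Adipocyte identity genes had 27 negative interactions of 29, with a median of -0.92 and 1 call. Pparg, the master transcription factor of adipocytes, was at 40.6, 45.6 and 36.2 FPKM in eWAT on HFD, against 76.6, 73.7 and 71.2 FPKM on chow. In iWAT Pparg was at 80.8, 59.4 and 81.7 FPKM on HFD and at 71.1, 60.5 and 75.6 FPKM on chow. The eWAT diets were far apart, the iWAT diets overlapped, and the interaction was -0.94 ± 0.21 (adjusted p = 0.0406). Without eWAT HFD 2, 21 of the 29 identity genes were called negative, and without both doubted libraries 19. Without iWAT chow 3 limma called 0, with 14 at an unadjusted p under 0.05. Of 23 adipokine genes, Nrg4, a neuregulin, had -1.87 ± 0.41 and Metrnl, the secreted meteorin-like protein, 2.86 ± 0.63. De novo lipogenesis gave 1 negative call of 22, Slc25a1 (-1.12 ± 0.27), the citrate carrier. Fatty acid uptake gave 1 positive call of 16, Acsl5 (0.73 ± 0.16), an acyl-CoA synthetase.

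Of 22 cholesterol synthesis genes, the effect was called higher in 8 and lower in 1 in eWAT, and higher in 11 and lower in 0 in iWAT, with a median interaction of -0.07. Hmgcs1, which makes HMG-CoA, was at 80.6, 83.7 and 65.8 FPKM in eWAT on HFD, against 56.3, 47.5 and 44.1 FPKM on chow. In iWAT Hmgcs1 was at 116, 108 and 128 FPKM on HFD, against 26.5, 18 and 16.8 FPKM on chow. Both depots rose without overlap, and the iWAT effect of 2.51 ± 0.18 exceeded the eWAT effect of 0.63 ± 0.18, for an interaction of -1.88 ± 0.25 (adjusted p = 0.0206). Fdft1, squalene synthase, was the gene called lower in eWAT (-0.66 ± 0.20, adjusted p = 0.0491). Its interaction was -1.18 ± 0.28, and its gene overlaps Ctsb. Overlapping neighbours were also listed for Agpat2 (Egfl7), Bscl2 (Gng3), Nrg4 (Fbxo22), Fgf1 (Arhgap26), Masp1 (Rtp4), Hoxa5 (Hoxa3), Timp1 (Syn1), Mmp12 (Mmp1b) and Cnp (Dnajc7), whose reads may not be separable.

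**Figure D4:**
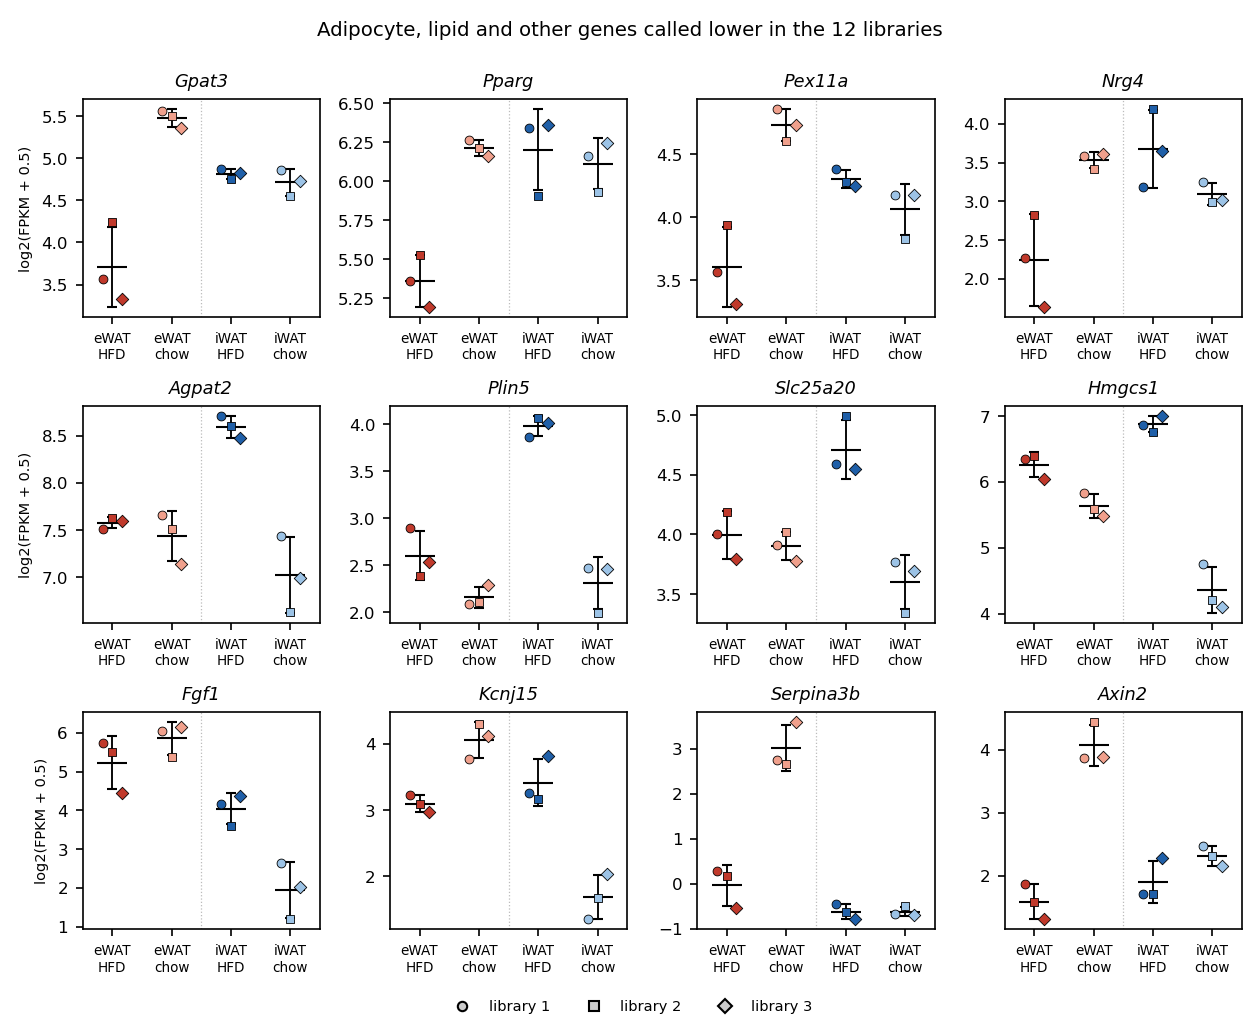
Expression of 12 genes with a negative interaction call on the log2(FPKM + 0.5) scale in the 4 groups of irisin mice, with a symbol for each library and bars for the mean ± SD (n = 3). In the top row eWAT on HFD lies below eWAT on chow, while in the middle row iWAT on HFD lies above iWAT on chow.

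Other large negative interactions lay in growth factor, Wnt and transporter genes. Serpina3b, of a family of protease inhibitors with near-identical copies, was at 0.726, 0.625 and 0.185 FPKM in eWAT on HFD, against 6.29, 5.89 and 11.6 FPKM on chow, and under 0.24 FPKM in iWAT. Its interaction of -3.04 ± 0.40 (adjusted p = 0.0203) thus rests on eWAT. Fgf1, a growth factor tied to remodelling of fat, was at 52.7, 44.9 and 21.4 FPKM in eWAT on HFD and at 65.7, 40.9 and 70.5 FPKM in eWAT on chow. In iWAT Fgf1 was at 17.4, 11.6 and 20.2 FPKM on HFD, against 5.7, 1.77 and 3.59 FPKM on chow, and the interaction was -2.72 ± 0.58 (adjusted p = 0.0394). The eWAT diets overlapped and the iWAT diets did not.

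Kcnj15, a potassium channel, was at 8.85, 8.03 and 7.35 FPKM in eWAT on HFD, against 13.1, 19.2 and 16.8 FPKM on chow. In iWAT Kcnj15 was at 9.09, 8.48 and 13.6 FPKM on HFD, against 2.07, 2.67 and 3.59 FPKM on chow. It fell in eWAT and rose in iWAT without overlap, with an interaction of -2.69 ± 0.31 (adjusted p = 0.0203). Klhdc9, at most 1.59 FPKM in any library, did the same at -2.17 ± 0.32, and its gene overlaps Pfdn2. Axin2, a feedback inhibitor of Wnt signalling, was at 3.14, 2.49 and 1.97 FPKM in eWAT on HFD, against 14.2, 21.2 and 14.3 FPKM on chow, and had an interaction of -2.07 ± 0.31 (adjusted p = 0.0206).

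The transporters Slc6a13 (for GABA, -2.09) and Slc16a12 (for creatine, -2.02) had eWAT effects of 0.06 and 0.01 and iWAT effects of 2.16 and 2.04. Zbtb7c, a zinc finger gene, had -2.21, and Syt12, a synaptotagmin, had -2.15. Isl1, a homeobox gene, had -2.01 and was at most 0.077 FPKM in iWAT, so that it rests on eWAT, and its sign turned to 0.071 by voom. D430019H16Rik had -2.34 and Fam160a1 -1.98.

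Depot patterning genes gave 2 positive and 2 negative calls of 23, and each fell in the depot where it was high. Tbx15 was at 3.7, 5.38 and 4.76 FPKM in iWAT on HFD, against 11.1, 14.2 and 13.6 FPKM in iWAT on chow, and its iWAT effect was -1.41 ± 0.16 (adjusted p = 0.000609). En1, a homeobox gene, had an iWAT effect of -1.81 ± 0.26. Hoxa5 was at 5.66, 5.66 and 3.57 FPKM in eWAT on HFD, against 18.6, 17.3 and 18.7 FPKM in eWAT on chow, for an eWAT effect of -1.80 ± 0.17 (adjusted p = 0.000603) and an interaction of -1.28 ± 0.24. Hoxa7 had an eWAT effect of -1.74 ± 0.23. Mesothelial markers were low in iWAT, with a mean log2(FPKM + 0.5) over the list of 0.058 to 0.52 there and 1.58 to 4.78 in eWAT. They had 15 negative interactions of 15 and a median of -1.06, but limma called 0, with 6 at an unadjusted p under 0.05 and 0 by voom. Wt1 had -1.50 ± 0.48 (adjusted p = 0.0972) and Cldn15, a claudin, -1.30 ± 0.40. The library eWAT HFD 3 had the least mesothelial RNA of eWAT, with Upk3b, a mesothelial uroplakin, at 58.6, 66.5 and 5.62 FPKM in eWAT on HFD, against 154, 107 and 158 FPKM on chow.

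**Figure D5:**
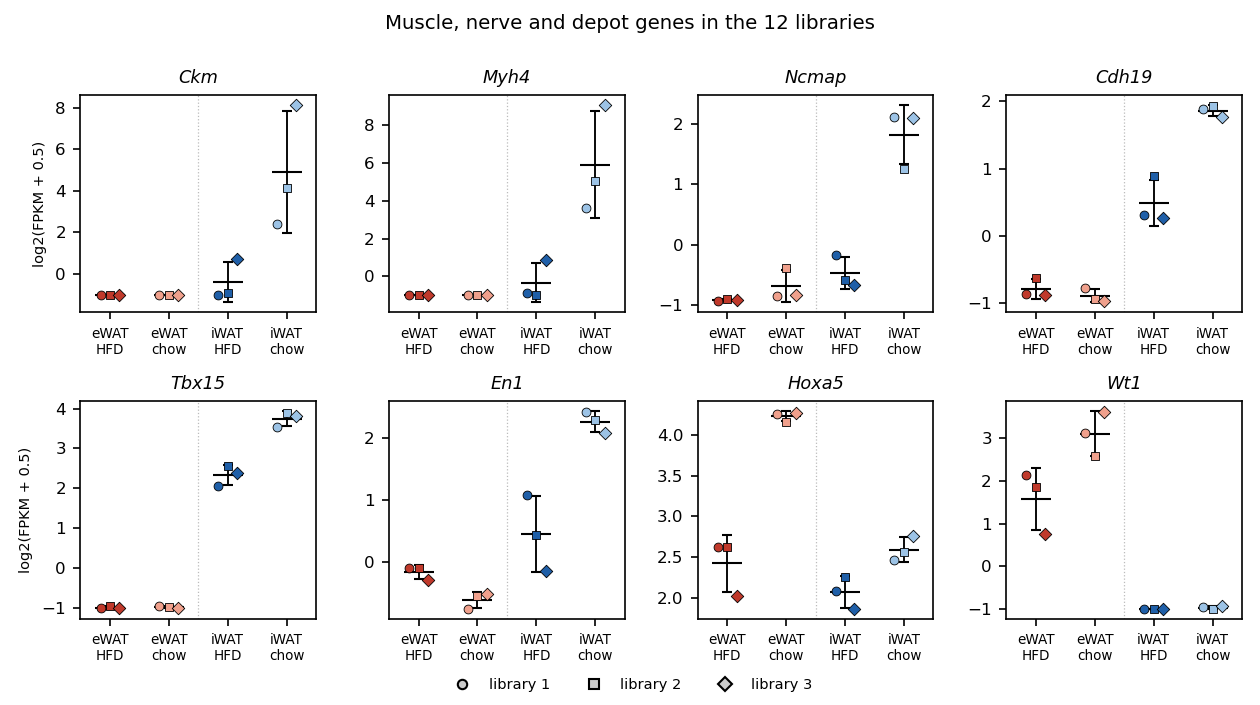
Expression of muscle (Ckm, Myh4), Schwann cell (Ncmap, Cdh19) and depot genes (Tbx15, En1, Hoxa5, Wt1) on the log2(FPKM + 0.5) scale in the 4 groups, with a symbol for each library and bars for the mean ± SD (n = 3). The muscle genes are spread widely over the 3 iWAT chow libraries, while the Schwann cell genes lie there above all iWAT HFD libraries.

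Thermogenic genes and the other lists of this paragraph gave 0 to 2 calls each, where 3.41% of all genes tested were called. Counts this small cannot be told from that share. Ucp1, which makes heat in brown and beige cells, was at most 0.409 FPKM in all 12 libraries and was not tested. Of 22 tested, 2 were called, both positive: Ckb, a creatine kinase, at 2.29 ± 0.50, and Tmem26, a beige marker, at 1.97 ± 0.36. Endothelial genes gave 0 calls of 21 in limma, with 4 at an unadjusted p under 0.05 and 0 by voom, Esam and Erg being nearest. Mural markers gave 1 negative call of 14, Rgs5 (-1.33 ± 0.31), a regulator of pericytes. Insulin signalling gave 1 negative call of 28, Pik3cb (-1.02 ± 0.23), a catalytic subunit of PI3 kinase. Stress genes gave 1 positive call of 36, the transcription factor Atf3 (4.08 ± 0.91), and senescence genes 1 of 17, the secreted stress factor Gdf15 (2.51 ± 0.60). Clock genes (19 tested) and adrenergic and lipid-sensing receptors (16 tested) gave 0 calls in limma, with 6 and 5 at an unadjusted p under 0.05 and 0 by voom. These small counts also moved with eWAT HFD 2: without it, limma called 7 stress genes positive and 5 negative, 2 insulin signalling genes positive and 6 negative, 5 senescence genes positive, 1 clock gene positive and 2 negative, and 3 receptor genes negative.

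The same interaction was tested for a difference between irisin and GFP mice. In a fit of all 24 libraries over 17687 genes, limma called the difference in 0 genes (0%), with 643 at an unadjusted p under 0.05 and a lowest adjusted p of 0.887. On simulated data this test recovered 8% of differences of 1 log2 unit and 55% of those of 2 log2 units. The 0 calls therefore cannot show that a difference is absent. The fit of 24 libraries called the interaction of GFP mice in 762 genes, 4.31% of those tested. It called the interaction of irisin mice positive in 479 genes and negative in 180. Of the 555 genes called in the fit of the 12 irisin libraries, 514 (92.6%) had the same sign in GFP mice, against 71.4% of all genes. The called positive genes had a median interaction of 2.14 in irisin mice and 1.38 in GFP mice, and the called negative genes -1.28 in irisin mice and -0.85 in GFP mice. The genes were selected on the irisin libraries, which by itself makes the irisin values the larger ones. The GFP values also include a library of iWAT on chow, the third, that stood apart from its group for some genes. In iWAT of GFP mice on chow, Clec10a was at 88.7, 77.7 and 13.6 FPKM and Ccl8 at 386, 431 and 7.42 FPKM. Gpat3 was at 31, 29.7 and 28.8 FPKM there, so it did not stand apart for every gene. The part of this library in the GFP medians was not tested. The 179 genes called in both were 32.3% of the irisin calls and 23.5% of the GFP calls. The irisin calls are from the fit of 12 libraries and the GFP calls from that of 24, so these shares compare unlike fits.

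Member by member, Spp1 had an interaction of 7.57 in irisin mice and 7.98 in GFP mice, and Gpnmb 7.44 in irisin mice and 7.20 in GFP mice. Clec10a had 2.63 in irisin mice and 1.61 in GFP mice, Gpat3 -1.87 in irisin mice and -1.17 in GFP mice, and Plin5 -1.23 in irisin mice and -0.21 in GFP mice. H2-Ab1 had 2.26 in irisin mice and 0.25 in GFP mice, and the difference was not called. One GFP library of each of 2 groups carried B cell RNA: Cd79a was at 43.6, 3.07 and 6.86 FPKM in eWAT of GFP mice on chow and at 145, 0.487 and 5.19 FPKM in iWAT of GFP mice on HFD, against 0.502 to 8.19 FPKM in the 12 irisin libraries. The part of these libraries in the MHC class II values of GFP mice was not tested.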

How the data were processed

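RNA from epididymal and inguinal fat was sequenced after poly-A selection, per the labels' protocols, which leave it unsaid whether the libraries were strand-specific. The authors deposited gene FPKM values. The submitters' processing notes name HISAT2 2.0.5 and featureCounts 1.5.0-p3, while a genome build is not named in the sources used here. Libraries were matched to groups by name, and 8 other numeric columns were not used. Whole reads could be recovered from the deposited FPKM values and gene lengths.

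Values were used as log2(FPKM + 0.5) for genes with at least 0.5 FPKM in 3 of the 12 libraries. Group means were fitted with limma 3.58.1 (R 4.3.3), with a mean-variance trend and Benjamini-Hochberg adjustment over all genes tested. The difference between irisin and GFP mice was fitted over all 24 libraries. All adjusted p-values are limma's. The script was tested on simulated data. Figures were drawn with matplotlib 3.10.9, and promoters came from RefSeq, build GRCm38.p6.

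Named genes were Fndc5, Il33 and Il1rl1, the 14 largest positive and 14 largest negative protein-coding calls outside muscle whose level averaged 1 FPKM or more in some group, up to 4 called members of each list by adjusted p (or 2 where none was called), and 6 muscle genes. Others, such as Lep, Adipoq, Adgre1, Trem2, Plin2, Fabp5, Mertk, Spi1, Nceh1 and Cd79a, were chosen after their values were seen. The members and the gene lists were chosen with earlier results of these data known. Results for some genes that the naming rule selects are not reported here.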

Additional observations from a re-analysis of the deposited data

Results flagged for a closer look

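Diet effects that differ between the depots by limma's interaction test are marked here: 409 genes with a positive and 146 with a negative interaction. Among the named genes, 7 had called diet effects of opposite sign in the 2 depots. Spp1 (interaction 7.57), Mmp3 (5.10), C5ar1 (3.58), Ccl9 (3.24) and Thbs2 (2.66) were higher on HFD in eWAT and lower on HFD in iWAT. Kcnj15 (-2.69) and Klhdc9 (-2.17) were lower on HFD in eWAT and higher on HFD in iWAT. With 3 libraries a group, no group was large enough for a test of single outlying libraries.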

How the results depend on the processing

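The counts of calls moved far more than the effects. Against 409 positive and 146 negative calls, there were 73 and 38 with no filter on low values, 153 and 52 by voom, 2 and 2 with a muscle score as covariate, and 0 and 0 with a fold minimum of 1 log2 unit. There were 1320 and 1021 without iWAT chow 3 and eWAT HFD 2, and 3040 and 3107 with array weights, whose estimate did not converge. Leaving out 1 library gave 0 to 1560 positive and 0 to 1304 negative calls. Whether the labels' replicate numbers pair the libraries could not be told. Deviations of same-numbered libraries of the 2 depots correlated between -0.186 and 0.378, and those of differently numbered ones between -0.418 and 0.447. With the replicate block there were 356 and 95 calls, and with the replicate block within diet 709 and 227. The diet effect was called in 2196 genes in eWAT and 2764 in iWAT. The block gave 1914 and 2524, the block within diet 835 and 311, array weights 9732 and 7491, and the fold minimum 16 and 31. The muscle covariate gave 255 in iWAT. Leaving out 1 library gave 622 to 3349 calls in eWAT and 1345 to 3662 in iWAT. Quantile normalization changed the share of positive calls from 73.7% to 65.3% and shifted the median gene by -0.106. Voom shifted it by 0.114. The difference between irisin and GFP mice had 0 calls in the alternatives run for it: log2(FPKM + 1), a minimum of 1 FPKM, the replicate block, array weights, both doubted libraries left out, and each single library left out. Signs reversed with the muscle covariate for Fndc5 (-0.23), Acta1 (-0.872) and Myl1 (-1.769), by voom for Isl1 (0.071), and for Myl1 without iWAT chow 3 and eWAT HFD 2 (-0.81). Over the fits that left out 1 library, Myl1 lay between -0.458, without iWAT chow 3, and 1.167. The cause was not tested, apart from fewer libraries in the last of these. Of the 555 called genes, all kept their sign in the other alternatives in which they were tested, except 1 by voom. They were selected on the same libraries, which by itself favours a kept sign.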

Other observations

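Other macrophage and immune genes had opposite called diet effects in the 2 depots. Tlr7, a sensor of single-stranded RNA, averaged 6.92 ± 3.51 FPKM in eWAT on HFD and 1.78 ± 0.0854 FPKM in eWAT on chow, against 1.26 ± 0.199 FPKM in iWAT on HFD and 4.22 ± 1.57 FPKM in iWAT on chow (SD, n = 3 each). Its interaction was 2.97 ± 0.45 (limma adjusted p = 0.0212). Ms4a6d, a membrane protein of macrophages, had an interaction of 3.505 ± 0.55, Ly86, the partner of the Toll-like receptor family protein CD180, 3.02 ± 0.52, and Plek, a protein kinase C substrate of blood cells, 3.39 ± 0.65. In the other direction, Hk2, a hexokinase, averaged 13.8 ± 1.43 FPKM in eWAT on HFD and 20.1 ± 0.927 FPKM in eWAT on chow, against 28.3 ± 2.154 FPKM in iWAT on HFD and 20.2 ± 4.49 FPKM in iWAT on chow. Its interaction was -1.02 ± 0.22 (limma adjusted p = 0.039). Atp2b4, a plasma membrane calcium pump, had -1.61 ± 0.31. These genes were chosen after their values were seen.

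Major urinary protein genes were seen almost only in iWAT on chow. Mup7 was listed at 0 in all libraries of the other 3 groups and averaged 2.68 ± 1.02 FPKM in iWAT on chow. Mup11 averaged 1.58 ± 0.327 FPKM and Mup13 1.56 ± 0.447 FPKM in iWAT on chow, and at most 0.103 FPKM in any other group. The family holds near-identical copies, so values of single members are uncertain.

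Igkj2, an immunoglobulin kappa joining segment, averaged 8.499 ± 1.85 FPKM in eWAT on HFD and was listed at 0 in all eWAT chow libraries, against 0.42 ± 0.727 FPKM in iWAT on HFD and 2.41 ± 2.23 FPKM in iWAT on chow. Its interaction was 5.56 in irisin mice and -5.67 in GFP mice, and limma's adjusted p of the difference was 0.887, the lowest of all genes. The B cell list had a median interaction of -3.86 in GFP mice. As given above, single GFP libraries of eWAT on chow and iWAT on HFD carried B cell RNA. The part of these libraries in the GFP value of Igkj2 was not tested.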
